A study of Mus musculus with 8 samples.

Results

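The proteasome is the large protease that destroys proteins tagged with ubiquitin. Its 20S core is a barrel of alpha rings and beta rings, with the cutting sites in the beta subunits, and the 19S particle on the barrel's end recognises, unfolds and feeds in the tagged protein. T cells need it to turn over signalling and cell cycle proteins, and lymphocytes also carry the immunoproteasome forms of the cutting subunits, which interferon induces. The genes described here are the 46 rows of a table of 18438 genes whose symbols start with Psma to Psmg followed by a digit and whose value reached 10 in at least 2 of 8 libraries. The immunoproteasome genes Psmb8, Psmb9 and Psmb10 and 3 symbols ending in -ps were left out by the rule, and no other matching row missed the threshold. The lowest member was Psmb11, at 17.7 to 39.2 normalized reads over the libraries.

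By role, the members comprised 7 alpha subunits, 4 structural beta subunits (Psmb1 to Psmb4), 4 catalytic beta subunits (Psmb5, Psmb6, Psmb7 and the thymus form Psmb11), 6 ATPases and 11 other subunits of the 19S particle, 3 chaperones of 19S assembly, 3 chaperones of 20S assembly, 5 activators and the inhibitor Psmf1. The symbol rule also took in Psmc3ip and Psme3ip1, which encode interacting proteins and no subunit. No row of the 18438 carried the symbol Psma8 or Psmg1.

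Messenger RNA had been sequenced from T cells of C57BL/6 mouse spleens, taken 7 days into experimental autoimmune encephalomyelitis (EAE), a model of autoimmune attack on the central nervous system. The groups were KO Treg, WT Treg, KO Teff and WT Teff, with 2 libraries each. KO stands for IRE1a-/-, a deletion of the endoplasmic reticulum stress sensor encoded by Ern1. Treg (regulatory T cells) had been sorted as CD4+CD25hiYFP+ and Teff (effector T cells) as CD4+CD25-YFP-. The labels used here do not say which cells carry the deletion, what drove it, the age of the mice or whether animals were pooled. Whether the pair of libraries in each group stands for different animals is not given either, and every p-value below measures only the spread between these libraries. The values are the authors' normalized read numbers, and the 8 libraries summed to between 17504097 and 18751258.

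Ern1 itself stayed detectable in KO, with 326 and 359 normalized reads in KO Treg, 377 and 399 in WT Treg, 458 and 453 in KO Teff and 559 and 616 in WT Teff. It was lower in both KO libraries than in both WT libraries of each cell type, with a log2 fold change of -0.18 in Treg (adjusted p = 0.489) and -0.37 in Teff (adjusted p = 0.0902, limma). A whole-gene value cannot check a deletion of part of a gene, and the labels do not give the deleted part. Treg markers were higher in Treg than in Teff for 5 of 5 genes in both genotypes, while Foxp3 was low, with 111 and 117 normalized reads in KO Treg, 89.1 and 92.2 in WT Treg, 2.06 and 8.29 in KO Teff and 0 and 0 in WT Teff.

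Most subunit genes were expressed at levels within an order of magnitude of each other, with a few far outside. Per kilobase of transcript, the 11S activators Psme1 and Psme2, whose products form the interferon-inducible cap that opens the 20S core, had the highest means over the 8 libraries, 4555 and 2954 normalized reads per kilobase. Among the 20S genes the level per kilobase ran from 323 for the alpha subunit Psma3 to 2098 for the structural beta subunit Psmb3, leaving out Psmb11 at 6.14. Psmb11 makes the catalytic subunit known from the thymic cortex, and its low value was shared by all 8 libraries. Within the alpha ring, Psma7 had the highest level at 1749 per kilobase. These ranks depend on the transcript length taken for each gene. It was 2846 bases for Psma3 and 2911 for Psma2, against 914 to 1239 for the other alpha genes. Other lengths were not tried.

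The constitutive cutting subunits were not equally abundant as messages. Psmb6, which encodes the caspase-like site, had 1702 normalized reads per kilobase, Psmb7, the trypsin-like site, 915, and Psmb5, the chymotrypsin-like site, 671. Their immunoproteasome replacements stood in another order on the same scale, with 1306 for Psmb10, 458 for Psmb9 and 162 for Psmb8. In the 19S base, 5 ATPases lay between 568 (Psmc6) and 1216 (Psmc3) per kilobase. Psmc2, the remaining ATPase of the same ring, lay at 49.6 per kilobase, with 90.5 and 109 normalized reads in KO Treg, 87.3 and 89.3 in WT Treg, 83.5 and 85.5 in KO Teff and 91.4 and 71.6 in WT Teff. All 8 libraries shared this low value, and no transcript of another gene was found that matched Psmc2 at 95% identity over 300 bases. Whether the value reflects the amount of message or the authors' assignment of reads was not tested. Among the other 19S subunits, Psmd8, a lid subunit, was highest at 1602 per kilobase and the scaffold subunit Psmd1 lowest at 417.

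With the transcript lengths taken, the assembly chaperones among the members had low levels, below every 20S and 19S subunit gene among the members except Psmb11 and Psmc2. Psma3, at 323 per kilobase, lay close above Psmg4, and its place rests on the 2846 bases taken for it. On the scale of normalized reads per kilobase, the 19S chaperones had 207 for Psmd10, 180.1 for Psmd5 and 145 for Psmd9. The 20S chaperones ran from 102 for Psmg3 to 315 for Psmg4. Psme3, the nuclear activator, had 1211 per kilobase, Psme4, the large single-chain activator, 184, and the inhibitor Psmf1 lay just above Psme4. Psmc3ip, which acts in meiotic recombination, was near the bottom at 41.3 per kilobase.

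**Figure D1:**
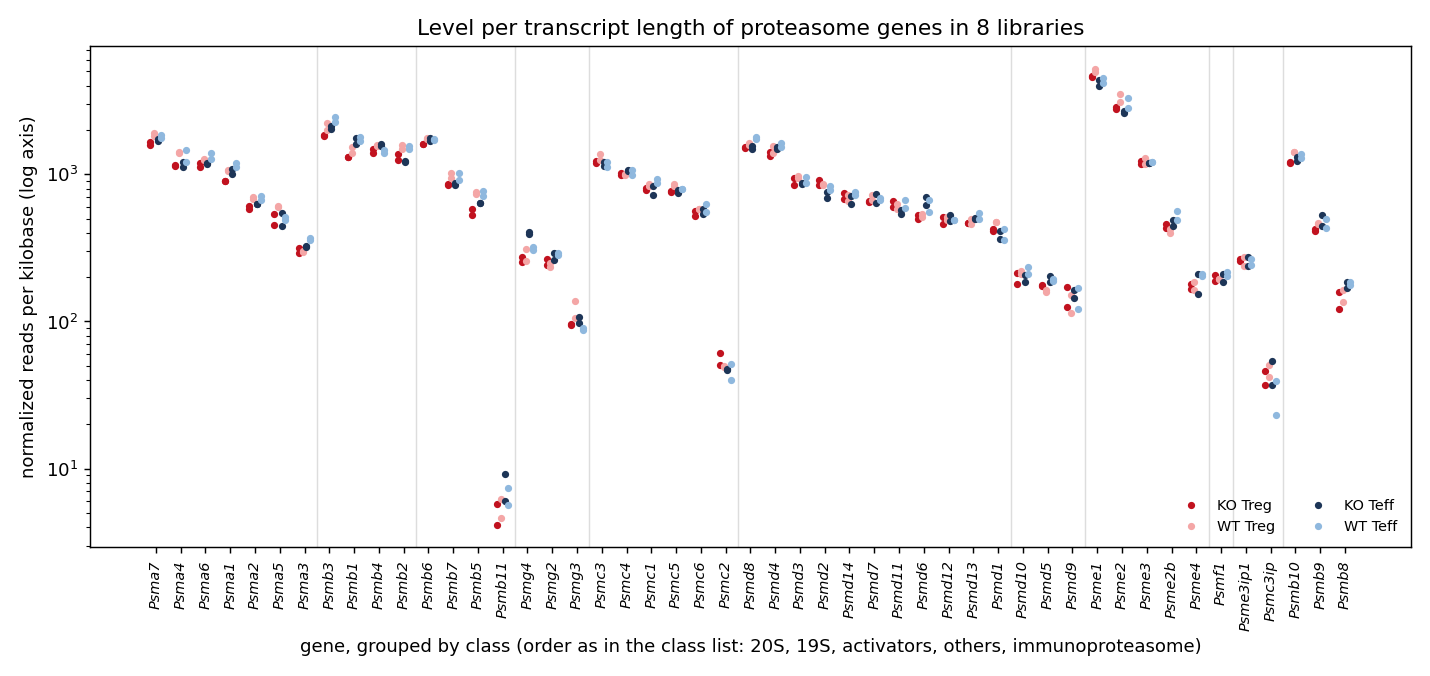
Normalized reads per kilobase of transcript (y, log axis) for each of the 46 genes and the 3 immunoproteasome genes (x, grouped by class), with 1 point per library and 2 libraries per group. Psme1 is highest at 4555 and Psmb11 lowest at 6.14 in the mean over libraries, and the points of a gene lie close together compared with the distances between genes.

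The members varied little over the study. The highest of the 8 libraries was less than 1.5-fold above the lowest for 40 of the 46 members (87.0%), against 36.5% of all 13358 tested genes and 63.1% of the 5871 tested genes with a mean of at least 500. The median ratio of highest to lowest library was 1.27. The steadiest members were Psmc4, an ATPase, with a ratio of 1.09, and Psme3 and Psmb6 at 1.10 and 1.11. The widest were Psmc3ip (2.32) and Psmb11 (2.22), both with few reads, followed by Psmg4 (1.60), Psmg3 (1.57), Psmc2 (1.52) and Psmd9 (1.51). Libraries of the same group differed by a median of 0.0876 on the log2 scale over the members, against 0.0927 over the tested genes with a mean of at least 500 and 0.1596 over all tested genes.

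KO was compared with WT first in Treg, where no proteasome gene passed the test, and the 20S core genes were slightly lower in KO. The 15 core genes together had 17622 and 17686 normalized reads in KO Treg, against 19711 and 20522 in WT Treg. The KO libraries were both below the WT libraries. Their median log2 fold change was -0.20, with 14 of 15 below 0, and 13 of 15 were lower in both KO libraries with no overlap, against 25.9% of tested genes. The 17 subunits of the 19S particle summed to 23538 and 23390 in KO Treg, against 24431 and 24422 in WT Treg, with a median log2 fold change of -0.08 and 12 of 17 below 0. In bulk samples, fewer cells of a type and less RNA per cell cannot be told apart.

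Over all 46 members, 0 were called at an adjusted p below 0.05 in Treg by limma, where 1.45% of tested genes were called (0.674% with higher and 0.779% with lower values). Before adjustment, 9 members (19.6%) had p below 0.05 by limma, all of them lower in KO, against 14.7% of tested genes in either direction. In the authors' deposited table the adjusted p was below 0.05 for 0 of 46 members. The share of all genes below 0.05 there was not counted here. The median log2 fold change was -0.11 over the members and -0.01 over all tested genes, with 34 of 46 members and 51.7% of tested genes below 0. In 23 members (50.0%) both KO libraries lay below both WT libraries, as they did for 25.9% of tested genes. The reverse held for Psmc2, Psmd5 and Psme2b, 3 members, against 22.8% of tested genes. The members' share of the library sum was 0.327% and 0.325% in KO Treg, against 0.341% and 0.352% in WT Treg.

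The smallest adjusted p in Treg belonged to Psmb5, with 522 and 477 normalized reads in KO Treg and 681 and 665 in WT Treg. Its log2 fold change was -0.43 (95% interval -0.64 to -0.22, adjusted p = 0.0758, limma), and -0.43 with adjusted p = 0.0684 in the authors' deposited table. Psma2, an alpha subunit, had 1782 and 1696 normalized reads in KO Treg and 1967 and 2025 in WT Treg, a log2 fold change of -0.20 ± 0.06 (SE, adjusted p = 0.213). Psma4, another alpha subunit, had 1334 and 1342 normalized reads in KO Treg and 1618 and 1663 in WT Treg and a log2 fold change of -0.29 ± 0.10 (adjusted p = 0.218). In these 3 genes the KO and WT libraries did not overlap, and none passed the threshold after adjustment.

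The same pattern of small differences ran through the other core genes. Psma1 had 1089.6 and 1088 normalized reads in KO Treg and 1264 and 1291 in WT Treg, and Psma7 had 1520.1 and 1452 normalized reads in KO Treg and 1652 and 1748 in WT Treg. Psma5 had 664 and 563 normalized reads in KO Treg and 737 and 755 in WT Treg, the widest separation between the 2 KO libraries of any alpha gene. Both KO libraries were below both WT libraries for each of these alpha genes, with log2 fold changes of -0.23 (Psma1), -0.19 (Psma7) and -0.29 (Psma5). Psma3 was the exception among the alpha genes, with 833 and 905 normalized reads in KO Treg and 848 and 853 in WT Treg and a log2 fold change of 0.03 (95% interval -0.15 to 0.21).

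Among the beta genes, Psmb2, which encodes a structural subunit, had 1069.7 and 1184 normalized reads in KO Treg and 1269 and 1353 in WT Treg, a log2 fold change of -0.22 ± 0.08 (adjusted p = 0.268). Psmb3 had 1412 and 1396 normalized reads in KO Treg and 1537 and 1717 in WT Treg. Psmb6 had 1284 and 1279.5 normalized reads in KO Treg and 1384 and 1412 in WT Treg. All 4 KO values of these last genes were below their WT values, with log2 fold changes of -0.21 for Psmb3 and -0.12 for Psmb6, neither called. Psmb7 had 975 and 992 normalized reads in KO Treg and 1088 and 1189 in WT Treg, a log2 fold change of -0.21 (95% interval -0.41 to -0.01, adjusted p = 0.308). A stretch holding 28.1% of its 50-base windows also lies in the transcripts of Nek6, which overlaps it, and the labels' library protocol has no step that keeps the strand.

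In the 19S particle the median difference was closer to 0, as given above. Psmc5, an ATPase, had 1019 and 1002 normalized reads in KO Treg and 1095 and 1126 in WT Treg and a log2 fold change of -0.14 (95% interval -0.30 to 0.02). Psmd1 had 1323 and 1288 normalized reads in KO Treg and 1471 and 1477 in WT Treg and a log2 fold change of -0.18 (95% interval -0.42 to 0.07). Psmc4 had 1463 and 1427 normalized reads in KO Treg and 1451 and 1434 in WT Treg, so that its KO and WT libraries overlapped, with a log2 fold change of 0.0024 (95% interval -0.15 to 0.16). Psmd14, the subunit that removes ubiquitin from the substrate, and Psmd4, a ubiquitin receptor, had log2 fold changes of 0.06 and -0.10. Psmd5, a 19S chaperone, had 764 and 782 normalized reads in KO Treg and 695 and 717 in WT Treg, with both KO values above both WT values and a log2 fold change of 0.13 ± 0.08 (adjusted p = 0.524).

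Psme1 and Psme2 together had 7864 and 7825 normalized reads in KO Treg, against 8771 and 8877 in WT Treg. The log2 fold changes were -0.14 (95% interval -0.30 to 0.02) for Psme1 and -0.23 (95% interval -0.45 to -0.0039) for Psme2, and neither was called. The other activators Psme3 and Psme4 and the inhibitor Psmf1 had log2 fold changes of -0.03, -0.01 and 0.01, with overlapping libraries. For 40 of the 46 members the 95% interval of the KO difference in Treg stayed within 1.5-fold in both directions. It was wider for Psmb5, Psmb11, Psmc2, Psmc3ip, Psmd9 and Psmg3. A p that misses the threshold does not show that KO and WT had equal levels.

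**Figure D2:**
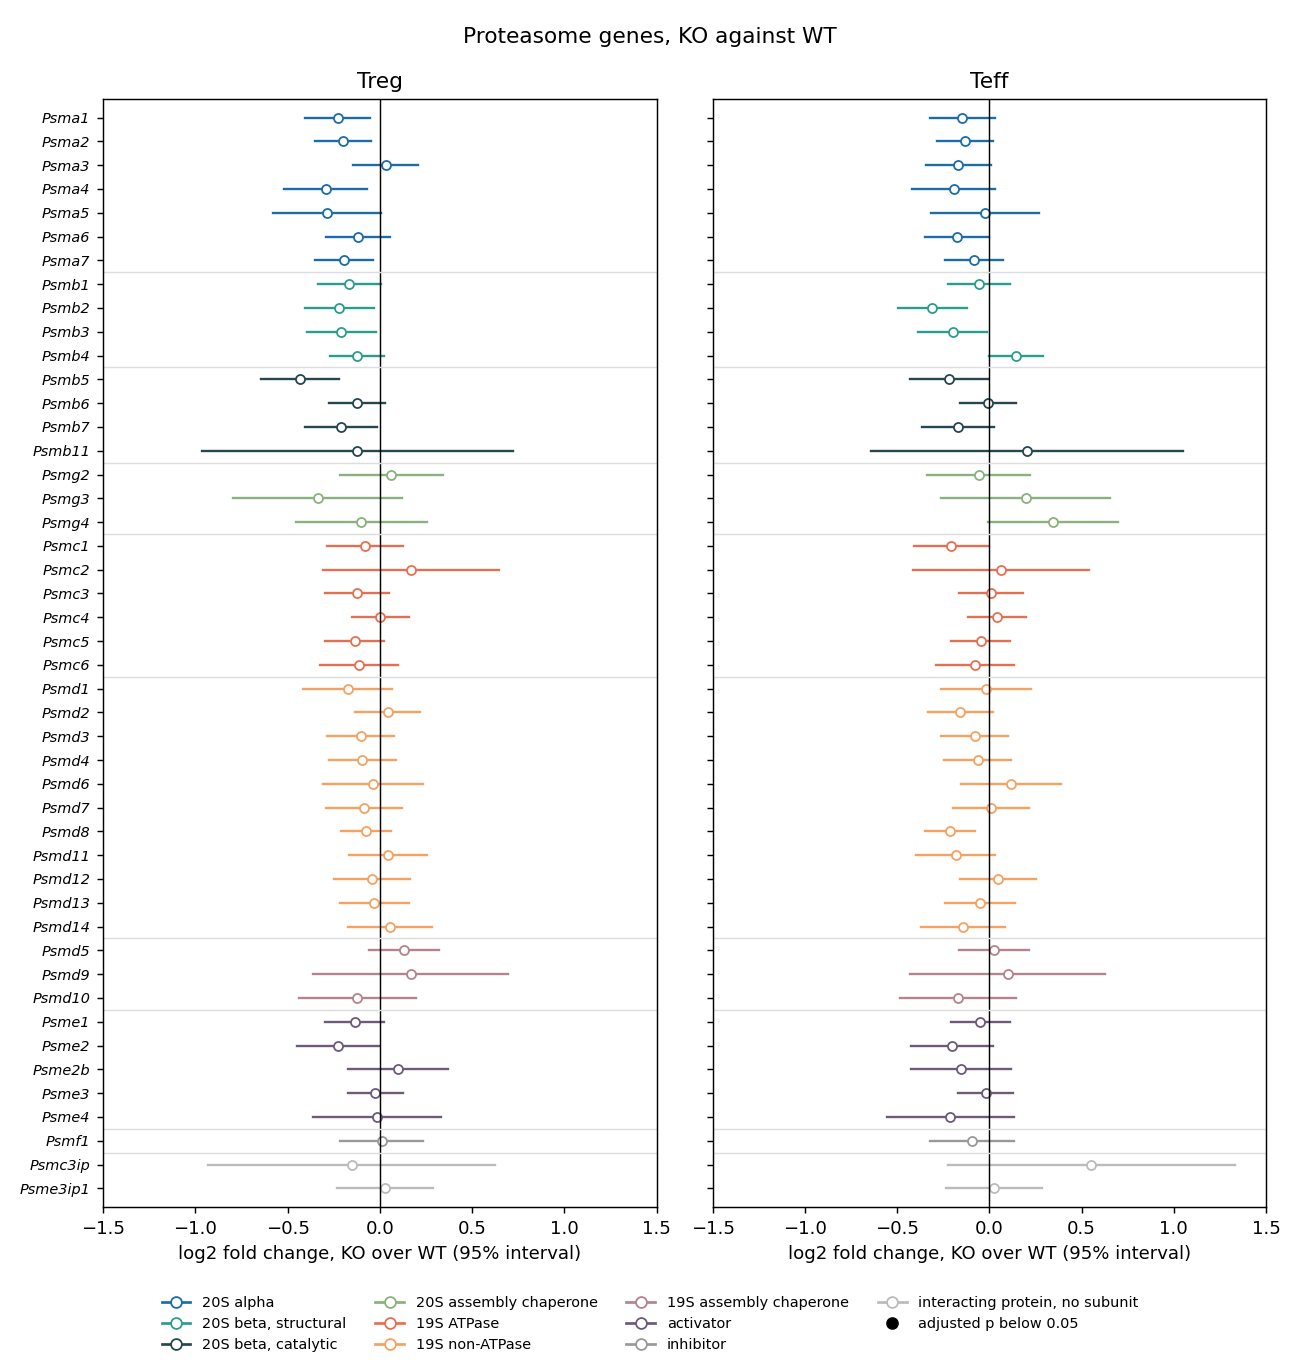
Log2 fold change of KO over WT with its 95% interval (x) for each of the 46 genes (y, coloured by class), in Treg on the left and Teff on the right, from 2 libraries per group. No symbol is filled, since 0 members passed the adjusted threshold in either cell type, and 14 of the 15 core genes lie left of 0 in Treg and 13 of 15 in Teff.

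Psmb5 shares much of its sequence with Gm3375, a processed pseudogene at chr7:3181093-3181888 (mm10, GENCODE M21), and the deposited table holds a value for each. The Psmb5 gene (ENSMUSG00000022193) lies at chr14:54614119-54618022 on the minus strand. The match ran over 796 bases at 98.9% identity, and 49.4% of the 50-base windows of the Psmb5 transcript occur letter for letter in Gm3375. Reads were 50 bases long and single-end per the labels' protocols. A stretch of 90 bases from the Psmb5 coding sequence, chosen because it holds many differences, is shown with its counterpart in the pseudogene. Capital letters mark the 3 bases that differ. A 50-base read that lies wholly inside this stretch covers a base that differs. In the shared windows elsewhere, a read fits both.
Psmb5: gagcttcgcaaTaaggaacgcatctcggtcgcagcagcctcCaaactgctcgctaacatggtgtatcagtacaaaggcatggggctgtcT
Gm3375: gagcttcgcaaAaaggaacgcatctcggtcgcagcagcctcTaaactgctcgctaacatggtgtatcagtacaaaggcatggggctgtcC

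The value of Gm3375 ran opposite to that of Psmb5. Gm3375 had 151 and 179 normalized reads in KO Treg, 8.82 and 40.2 in WT Treg, 139 and 168 in KO Teff and 43.2 and 20.2 in WT Teff, so that all 4 KO libraries lay above all 4 WT libraries. Its log2 fold change of KO over WT was 3.04 in Treg (adjusted p = 0.0786) and 2.33 in Teff (adjusted p = 0.0836) by limma, and the authors' deposited table gives 2.75 (adjusted p = 0.000682) in Treg and 2.28 (adjusted p = 0.00407) in Teff. As a share of both values summed, Gm3375 took 22.5% and 27.3% in KO Treg and 19.5% and 22.7% in KO Teff, against at most 6.31% in any WT library.

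The sum of Psmb5 and Gm3375 was 673 and 655 normalized reads in KO Treg, 689.9 and 706 in WT Treg, 716 and 738 in KO Teff and 685 and 714 in WT Teff. In Treg both KO sums lay below both WT sums, and in Teff both lay above. With the values summed before the fit, a choice made after seeing the data, the log2 fold change was -0.07 ± 0.08 in Treg (SE, adjusted p = 0.740) and 0.06 ± 0.08 in Teff (adjusted p = 0.731). The log2 fold change in Treg was thus -0.43 for the value assigned to Psmb5, the member with the smallest adjusted p there, and -0.07 for the pair. Which of the copies the reads came from was not tested.

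**Figure D3:**
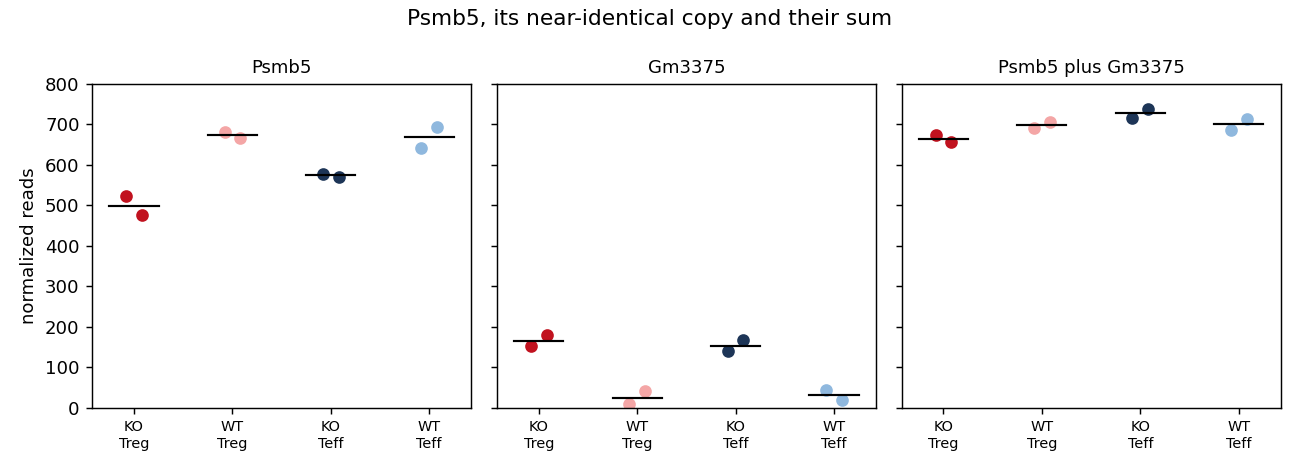
Normalized reads (y, from 0) of Psmb5, of the processed pseudogene Gm3375 and of their sum, by group (x), with 1 point per library and a line at the mean of 2 libraries. Gm3375 lies at 139 to 179 in the KO libraries and at 8.82 to 43.2 in the WT libraries, and the sum lies between 655 and 738 in all 8.

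A second pair lies inside the list. Psme2b at chr11:48945354-48946190 matched Psme2 over 794 bases at 99.4% identity, and the stretch of 90 bases shown here from the Psme2 coding sequence holds 3 of their 5 differences, in capitals.
Psme2: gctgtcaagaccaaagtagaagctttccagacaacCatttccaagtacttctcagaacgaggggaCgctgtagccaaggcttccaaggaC
Psme2b: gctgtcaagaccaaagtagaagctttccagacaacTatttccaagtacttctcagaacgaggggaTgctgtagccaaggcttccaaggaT

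Psme2 had 2673 and 2739 normalized reads in KO Treg, 2973 and 3373 in WT Treg, 2577 and 2519.8 in KO Teff and 2694 and 3188 in WT Teff. Psme2b had 360.0 and 382 normalized reads in KO Treg, 357 and 336 in WT Treg, 374 and 412 in KO Teff and 409 and 468 in WT Teff. In Treg, Psme2 was lower and Psme2b higher in both KO libraries, with log2 fold changes of -0.23 and 0.10, neither called. Summed, the pair had a log2 fold change of -0.19 in Treg (adjusted p = 0.393) and -0.20 in Teff (adjusted p = 0.263), so here the sum kept the direction of Psme2. Of the 46 members, 21 share no 50-base window with a transcript of another gene and 31 share under 10%. Those that share over 10% with genes in the table number 11, among them Psmb7 with Nek6, Psmc3ip with Mlx, Psmd13 with Sirt3 and Psmd2 with Gm5422. Sharing leaves their values uncertain, but the share of windows does not give by how much. Gm5422 had at most 6.44 normalized reads in a library, against 2028 to 2698 for Psmd2. Mlx had 917 to 1251, against 30.1 to 69.8 for Psmc3ip.

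In Teff, the comparison of KO with WT again gave no called member. The 15 core genes summed to 19137 and 19290 normalized reads in KO Teff, against 20232 and 21242 in WT Teff, with a median log2 fold change of -0.15 and 13 of 15 below 0. The 19S subunits summed to 23122 and 23185 in KO Teff, against 24436 and 24501 in WT Teff, with a median of -0.05 and 11 of 17 below 0. In both particles the KO sums were below the WT sums. The count of members called was 0 of 46 by limma, where 6.92% of tested genes were called (1.84% higher and 5.08% lower in KO). At an unadjusted p below 0.05 there were 6 members (13.0%), 5 lower and 1 higher in KO. This share was below the 21.6% of all tested genes. The authors' deposited table likewise has 0 of 46 members below 0.05.

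The median log2 fold change in Teff was -0.06 over the members and -0.02 over all tested genes, with 32 of 46 members below 0. In 20 members (43.5%) both KO libraries lay below both WT libraries, against 27.4% of tested genes, and in 3 members, Psmb4, Psmg3 and Psmg4, they lay above, against 22.4% of tested genes. The members' share of the library sum was 0.311% and 0.317% in KO Teff, against 0.336% and 0.332% in WT Teff. The 95% interval stayed within 1.5-fold for 41 members, and it was wider for Psmb11, Psmc3ip, Psmd9, Psmg3 and Psmg4.

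Psmb2 came closest to the threshold in Teff, with 1061 and 1042 normalized reads in KO Teff and 1271 and 1336 in WT Teff. Its log2 fold change was -0.31 (95% interval -0.50 to -0.12, adjusted p = 0.0674 by limma), and the authors' deposited table gives -0.31 with adjusted p = 0.0646. Psmb2 was lower in both KO libraries of both cell types, and none of its 50-base windows occurs in another gene. Psmd8 had 2402 and 2291 normalized reads in KO Teff and 2659 and 2773 in WT Teff, a log2 fold change of -0.21 (95% interval -0.35 to -0.08, adjusted p = 0.0795), and likewise shares no window.

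Other members of the core behaved alike in size. Psma6 had 1242 and 1231 normalized reads in KO Teff and 1464 and 1330.2 in WT Teff, a log2 fold change of -0.17 (adjusted p = 0.233). Psmb3 had 1618 and 1544 normalized reads in KO Teff and 1742 and 1889 in WT Teff, a log2 fold change of -0.20 (adjusted p = 0.204). Psmb5 had 577 and 571 normalized reads in KO Teff and 642 and 694 in WT Teff, a log2 fold change of -0.22 (adjusted p = 0.221) that turned to 0.06 for its sum with Gm3375. In all 3 genes both KO libraries were below both WT libraries. Psmb6 had a log2 fold change of -0.01 in Teff, with a 95% interval of -0.16 to 0.15, and Psmb7 of -0.17, with an interval of -0.36 to 0.03.

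Among the ATPases Psmc1 had the smallest p in Teff, with 1155 and 1332 normalized reads in KO Teff and 1481 and 1381 in WT Teff and a log2 fold change of -0.21 (adjusted p = 0.232). Psmd10, a 19S chaperone also known as gankyrin, had 266 and 296 normalized reads in KO Teff and 299 and 333 in WT Teff and a log2 fold change of -0.17 (95% interval -0.49 to 0.15). Psme1 had a log2 fold change of -0.05 (95% interval -0.21 to 0.11) and Psme2 of -0.20 (95% interval -0.42 to 0.02). Psmf1 had -0.09 and Psme4 -0.21 on the same scale, with wide intervals of -0.32 to 0.13 and -0.56 to 0.13.

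Against this run of lower values, Psmb4 and Psmg4 stood higher in KO Teff, with no overlap between KO and WT libraries. Psmb4, a structural beta subunit, had 1843 and 1895 normalized reads in KO Teff and 1717 and 1659.7 in WT Teff, a log2 fold change of 0.15 (95% interval 0.0003 to 0.29, adjusted p = 0.231). Psmg4, a chaperone of 20S assembly, had 225 and 218 normalized reads in KO Teff and 179 and 169 in WT Teff, a log2 fold change of 0.34 (95% interval -0.01 to 0.70, adjusted p = 0.242). Neither was called. Psmc3ip averaged 58.9 ± 15.4 normalized reads in KO Teff and 40.5 ± 14.8 in WT Teff (SD, n = 2 each), with overlapping libraries and the largest log2 fold change of the list in Teff, 0.55, with an interval of -0.23 to 1.33.

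Genes of cell state were called between genotypes. The summed level of macrophage and monocyte markers was lower in KO, with no single marker of that list called by limma. The part of all these genes in the proteasome values was not tested. Of 31 proliferation genes, 2 were called lower in KO Treg and 16 in KO Teff, against 0.779% and 5.08% of tested genes. Their sums were 19114 to 20092 normalized reads in KO Treg against 23850 to 24030 in WT Treg. In Teff the sums were 13878 to 14623 in KO against 20417 to 20463 in WT. Of 14 T cell activation genes, 3 were called lower in KO Treg and 9 in KO Teff, against the same shares of tested genes. Of the 7 tested macrophage and monocyte markers (Adgre1 not among them), 0 were called in either cell type by limma, with 2 in Treg and 5 in Teff at an unadjusted p below 0.05. That unadjusted limit was met by 14.7% and 21.6% of tested genes. The authors' deposited table gives Cd68 a log2 fold change of -0.69 in Treg (adjusted p = 0.00720). It gives Csf1r -1.56 in Teff (adjusted p = 0.0297). The macrophage and monocyte markers summed to 10180 to 10853 in KO Treg against 17778 to 18326 in WT Treg. In Teff they summed to 602 to 824 in KO against 872 to 1982 in WT, with none at 0 in a group. The 5 tested dendritic cell markers all had log2 fold changes of KO over WT below 0 in both cell types. By limma, 0 of them were called in Treg and 1 was called lower in Teff.

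The KO effect was then compared between the cell types. For 0 of 46 members did the difference between the effects pass the test in limma, where 0.0225% of tested genes were called. At an unadjusted p below 0.05 there was 1 member (2.17%), against 10.4% of tested genes. The smallest p belonged to Psmb4, with a difference between the log2 fold changes of -0.27 (95% interval -0.48 to -0.06, adjusted p = 0.357). Psmg4 had a difference of -0.45 (interval -0.95 to 0.05), Psmb5 of -0.21 (-0.52 to 0.09) and Psma3 of 0.20 (-0.05 to 0.45). For 37 members the interval of the difference stayed within 1.5-fold.

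Treg and Teff, the cells compared within each genotype, differed in few proteasome genes although they differed widely elsewhere. In WT, 3 of 46 members (6.52%) were called, while 25.1% of tested genes were called. By direction, 1 was higher and 2 were lower in Treg, against 13.5% and 11.6% of tested genes. Among tested genes with a mean of at least 500 the share called was 29.7%, and 3 of the 37 members at that level were called. The median log2 fold change of Treg over Teff was -0.02 over the members, with 24 of 46 below 0. In KO, 3 of 46 members were called again, while 26.9% of tested genes were called, with 1 higher and 2 lower in Treg against 15.7% and 11.2% of tested genes, and the median was -0.06 with 29 of 46 below 0. The sign of these medians depends on the scaling: with each library divided by its sum they were 0.02 in KO and 0.04 in WT, with 19 of 46 below 0 in each, where the medians of all tested genes were 0.07 and 0.05. The WT median was also above 0 without WT Treg replicate 1 (0.0061) or without WT Teff replicate 2 (0.0083). The absolute log2 fold change was under 0.2 for 33 members in WT and 38 in KO, against 38.2% and 36.9% of tested genes. The comparisons in WT and in KO use different libraries.

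Psmb1 (ENSMUSG00000014769, chr17:15475021-15499751), a structural subunit of the beta ring, fell in Treg relative to Teff in both genotypes. It had 2289 and 2309 normalized reads in KO Treg, 2829.6 and 3084 in KO Teff, 2470.2 and 2689.8 in WT Treg and 2975 and 3161 in WT Teff, so that every Treg library was below every Teff library. The log2 fold change was -0.36 ± 0.07 in KO (SE, adjusted p = 0.00906) and -0.25 ± 0.07 in WT (adjusted p = 0.0413), both by limma. Over 18 alternative settings the adjusted p ran from 0.00625 to 0.0525 in KO and from 0.0302 to 0.205 in WT.

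Psma3 (ENSMUSG00000060073, chr12:70974621-70996347), a subunit of the alpha ring, fell in WT Treg. It had 848 and 853 normalized reads in WT Treg and 1021 and 1047 in WT Teff, with no overlap and little spread, and a log2 fold change of -0.28 ± 0.08 (adjusted p = 0.0315). In KO the values were 833 and 905 in Treg and 917 and 923 in Teff, also without overlap, with a log2 fold change of -0.08 (interval -0.26 to 0.09, adjusted p = 0.469). Of its 50-base windows 22.0% occur in other genes, 6.26% in genes that the table holds.

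Psme1 (ENSMUSG00000022216, chr14:55578123-55581529), the alpha chain of the 11S activator, rose in WT Treg. It had 5798 and 5504 normalized reads in WT Treg and 4999 and 4626 in WT Teff, with no overlap, a log2 fold change of 0.23 ± 0.07 and adjusted p = 0.0448. In KO it had 5191 and 5086 in Treg and 4429 and 4885 in Teff, a log2 fold change of 0.14 (interval -0.02 to 0.30, adjusted p = 0.169). Its partner Psme2 had log2 fold changes of 0.09 in KO and 0.11 in WT, neither called.

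In KO, Psmg4 fell and Psmd2 rose in Treg relative to Teff. Psmg4 (ENSMUSG00000071451, chr13:34162964-34178173) had 140.5 and 153 normalized reads in KO Treg and 225 and 218 in KO Teff, well apart, with a log2 fold change of -0.59 ± 0.15 (adjusted p = 0.0252). In WT the Psmg4 libraries overlapped, at 144 and 172 in Treg and 179 and 169 in Teff. Psmd2 (ENSMUSG00000006998, chr16:20651652-20663414), the scaffold subunit that docks ubiquitin shuttles, had 2486 and 2698 normalized reads in KO Treg and 2028 and 2234 in KO Teff, a log2 fold change of 0.28 ± 0.08 (adjusted p = 0.0289). In WT it had 2490.3 and 2539 in Treg and 2452 and 2299 in Teff, a log2 fold change of 0.08 (interval -0.09 to 0.26). Neither gene's Treg to Teff difference was shown to depend on genotype, with adjusted p = 0.544 for Psmg4 and 0.593 for Psmd2 in the test of that difference.

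These calls rest on few libraries. Without either WT Treg library, or without WT Teff replicate 2, none of the members was called in WT, and without WT Teff replicate 1 only Psmd1 was. Without either KO Treg library, which enters that comparison only through the shared spread, only Psma3 was called. In KO, none was called without KO Treg replicate 1, only Psmb1 without KO Treg replicate 2 or KO Teff replicate 1, and only Psmd2 without KO Teff replicate 2. Psmd2 and Psmg4 had adjusted p up to 0.156 and 0.123 over the alternatives, and Psma3 and Psme1 up to 0.122 and 0.202.

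**Figure D4:**
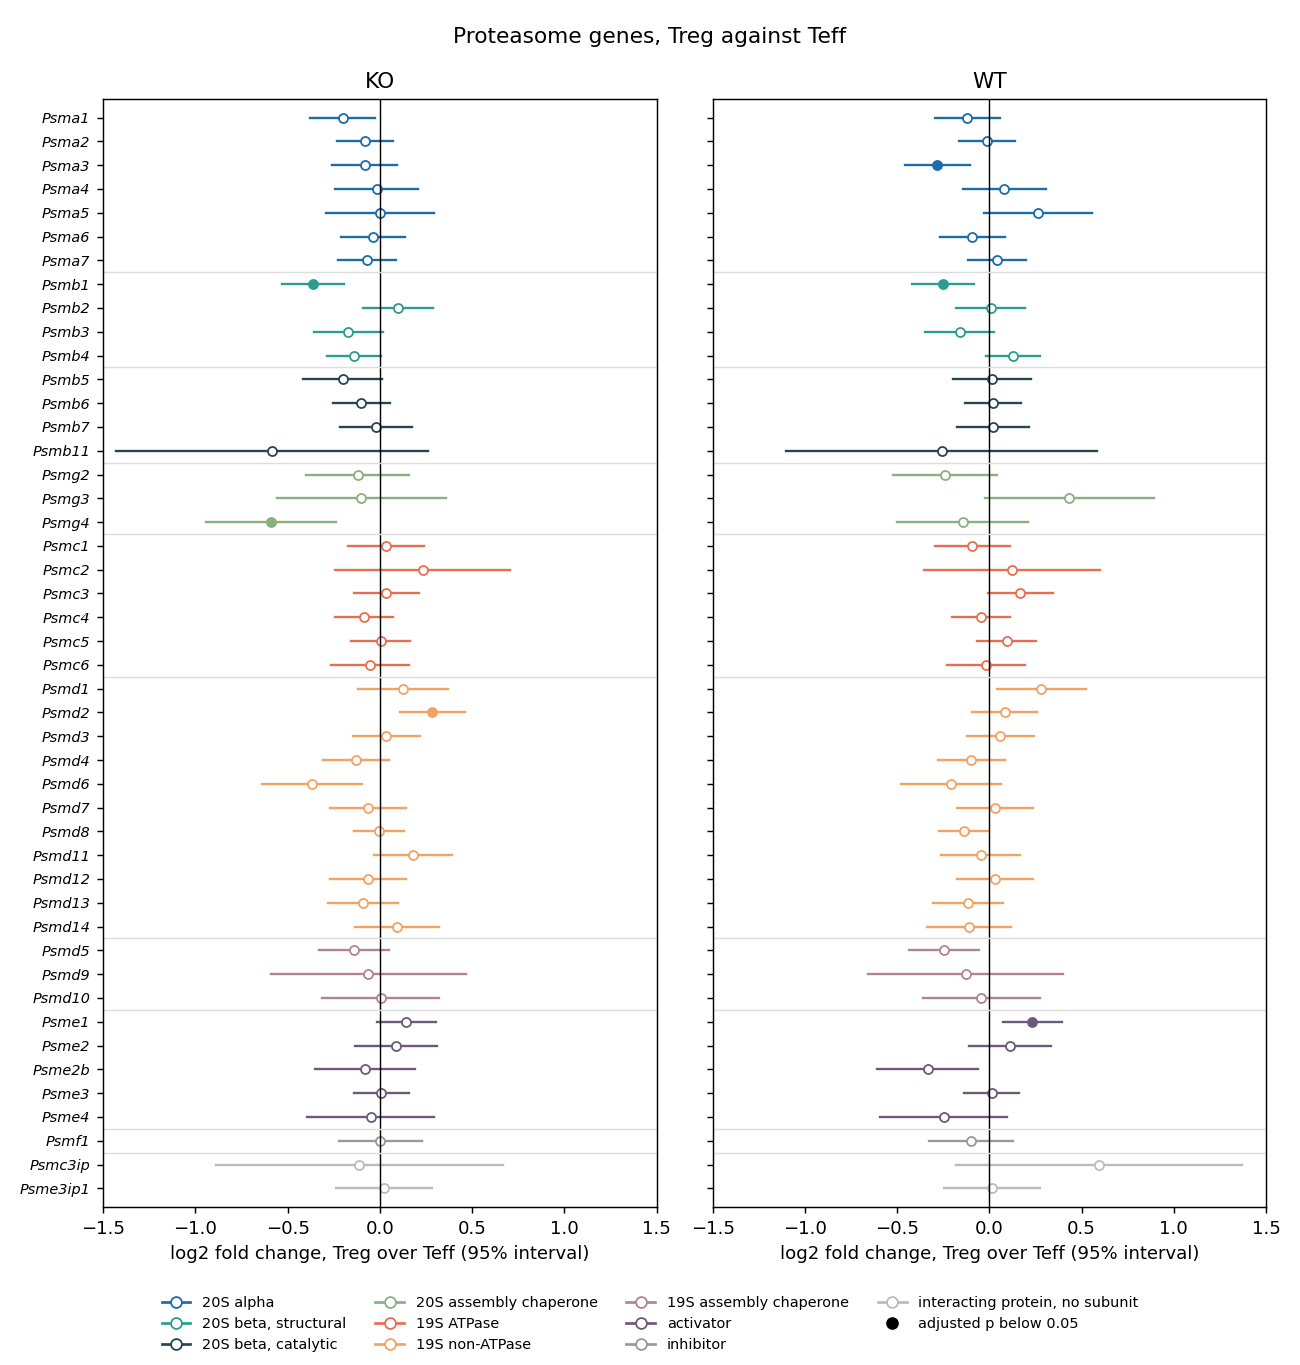
Log2 fold change of Treg over Teff with its 95% interval (x) for each of the 46 genes (y, coloured by class), in KO on the left and WT on the right, from 2 libraries per group. Filled symbols passed an adjusted p of 0.05: Psmb1, Psmg4 and Psmd2 in KO, and Psma3, Psmb1 and Psme1 in WT.

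Several members came near the threshold. Psmd6, a lid subunit, had 685 and 731 normalized reads in KO Treg and 976 and 854 in KO Teff, a log2 fold change of -0.37 ± 0.12 (adjusted p = 0.0536). Psmd5 had 695 and 717 normalized reads in WT Treg and 850.0 and 824 in WT Teff, a log2 fold change of -0.25 ± 0.08 (adjusted p = 0.0664). Psmd1 had 1471 and 1477 normalized reads in WT Treg and 1325 and 1108 in WT Teff, a log2 fold change of 0.28 ± 0.10 (adjusted p = 0.0894). In each the Treg and Teff libraries were separate, lower in Treg for Psmd6 and Psmd5 and higher for Psmd1. Psmg3 in WT had a log2 fold change of 0.43 with an interval of -0.02 to 0.89, and Psma1 in KO -0.20 with -0.38 to -0.03.

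The cutting subunits gave no called difference between the cell types. In KO the log2 fold changes of Treg over Teff were -0.20 for Psmb5, -0.10 for Psmb6, -0.02 for Psmb7 and -0.58 for Psmb11. In WT they were 0.01, 0.02, 0.02 and -0.26 for the same genes in that order. The intervals of the first 3 genes in WT lay between -0.20 and 0.23, while that of Psmb11 was -1.10 to 0.59. Both ATPases named here, Psmc3 in WT at 0.17 (interval -0.01 to 0.34) and Psmc4 in KO at -0.09 (interval -0.24 to 0.07), had the smallest p of their class.

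Summed, the core genes were lower in Treg than in Teff in KO, and overlapped in WT. In KO the 15 core genes summed to 17622 and 17686 normalized reads in Treg and 19137 and 19290 in Teff, where 10 of the 15 were lower in Treg with no overlap and 1 was higher. In WT they summed to 19711 and 20522 in Treg and 20232 and 21242 in Teff, which overlapped, with 5 lower and 2 higher. Over all members, 17 were lower and 7 higher without overlap in KO, against 32.1% and 32.9% of tested genes. In WT, 14 were lower and 9 higher, against 31.5% and 32% of tested genes.

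Other cells' markers differed between the sorts too. All 7 tested macrophage and monocyte markers were called higher in Treg in WT and 6 of 7 in KO, against 13.5% and 15.7% of tested genes. All 4 tested erythroid markers had positive log2 fold changes in both genotypes. The 5 tested dendritic cell markers split, with 3 called lower and 1 higher in Treg in each genotype. Of 5 tested B cell markers, 1 was called higher and 0 lower in each. The shares of tested genes called lower were 11.6% in WT and 11.2% in KO. Natural killer cell markers summed to 35.0 to 37.3 normalized reads in KO Treg against 307 to 376 in KO Teff, and to at most 42.8 in WT Treg against 475 to 608 in WT Teff, with Ncr1 at 0 in both Treg groups. The part of all these markers in the proteasome values was not tested.

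**Figure D5:**
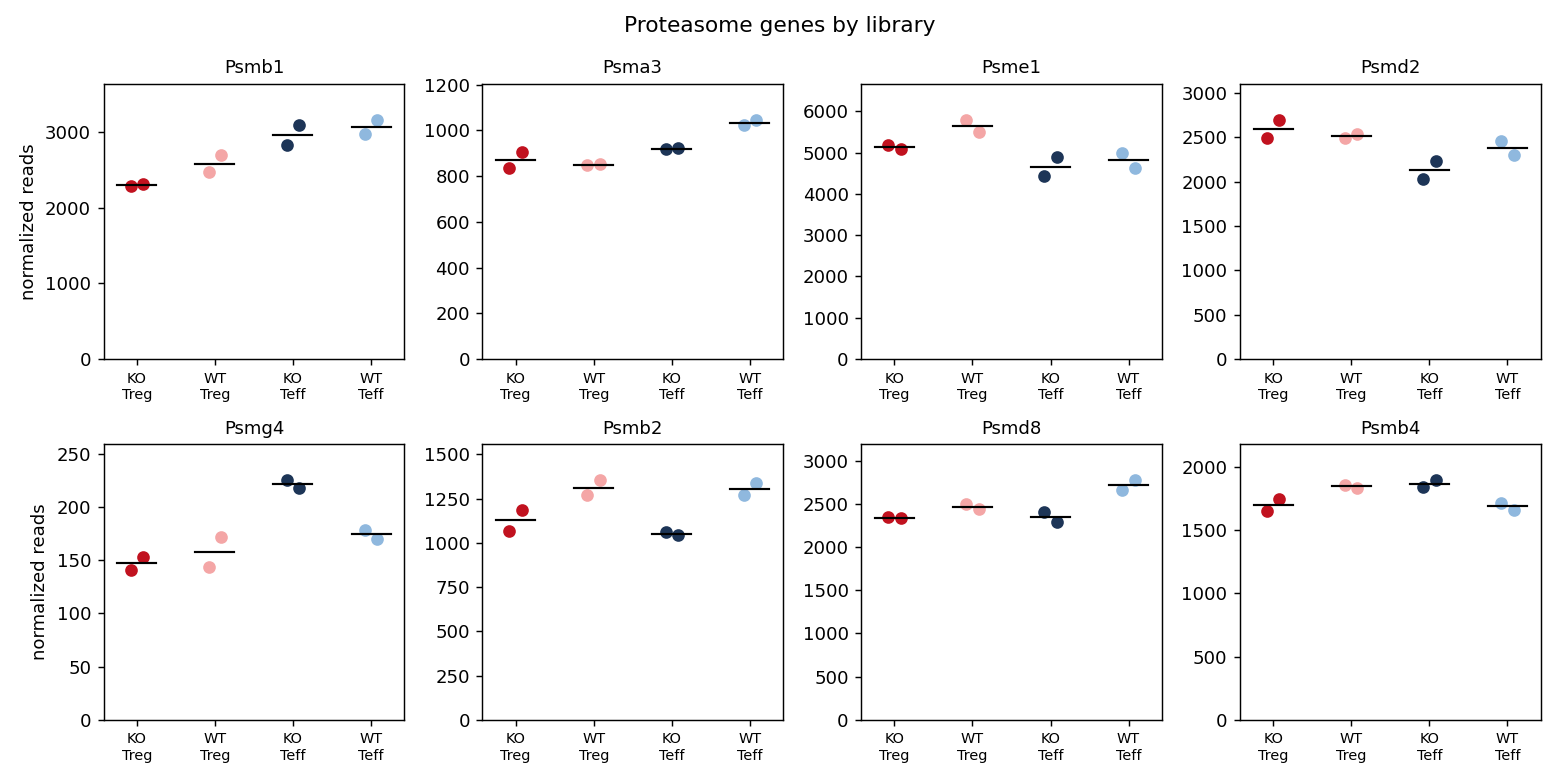
Normalized reads (y, each axis from 0) of 8 genes by group (x), with 1 point per library and a line at the mean of 2 libraries. Psmb1 lies between 2289 and 2690 in the Treg libraries and between 2830 and 3161 in the Teff libraries, while Psmb4 is lower in KO than in WT in Treg and higher in Teff.

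The immunoproteasome genes outside the rule showed no called difference either. Psmb10 had 1585 and 1568 normalized reads in KO Treg, 1857 and 1866 in WT Treg, 1608 and 1729 in KO Teff and 1787 and 1693 in WT Teff, with a log2 fold change of KO over WT of -0.24 in Treg (adjusted p = 0.153) and -0.06 in Teff. Psmb9 had -0.16 and 0.07, and Psmb8 -0.10 and -0.04, in Treg and in Teff. In Treg relative to Teff all 3 had intervals that held 0, with log2 fold changes in KO of -0.08, -0.22 and -0.35 for Psmb10, Psmb9 and Psmb8.

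Of 11 further proteasome partners tested (chaperones, receptors and ubiquitin-trimming enzymes), 0 were called between genotypes in either cell type by limma. The shares of all tested genes called were 1.45% in Treg and 6.92% in Teff. Pomp, the maturation factor of the 20S core, had 1013 and 1028 normalized reads in KO Treg, 1241 and 1238 in WT Treg, 1023 and 961 in KO Teff and 1148 and 1204 in WT Teff. Both KO libraries were below both WT libraries in each cell type, with log2 fold changes of -0.28 (adjusted p = 0.124) in Treg and -0.25 (adjusted p = 0.0928) in Teff. Sem1 and Adrm1, subunits of the 19S particle whose symbols fall outside the rule, had log2 fold changes in Treg of -0.0002 and 0.03. Between the cell types, 1 of the 11 was called lower in Treg in both genotypes and 0 higher. Of all tested genes, 11.2% in KO and 11.6% in WT were called lower. The called partner was Zfand2a, a stress-induced partner, at -0.82 in KO (adjusted p = 0.000970) and -0.64 in WT (adjusted p = 0.00367).

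Genes that control proteasome transcription were also read. Nfe2l1, the factor that raises subunit transcription when the proteasome is inhibited, had 1939 and 2279 normalized reads in KO Treg, 2292 and 1998 in WT Treg, 1690.1 and 1606 in KO Teff and 1870.4 and 2071 in WT Teff, with a log2 fold change between KO and WT of -0.03 in Treg and -0.26 in Teff (adjusted p = 0.948 and 0.220). Between the cell types, 2 of 12 regulators tested were called higher and 1 lower in Treg in KO, against 15.7% and 11.2% of tested genes. In WT, 1 was called higher and 1 lower, against 13.5% and 11.6%. Nfe2l1 rose in KO Treg relative to KO Teff by 0.35 (adjusted p = 0.0473, limma), while its WT Treg and WT Teff libraries overlapped. Nfe2l2, its relative in the oxidative stress response, fell in Treg relative to Teff, at -0.90 in KO and -0.91 in WT (adjusted p = 0.000290 and 0.000393). Of the 12 regulators tested, 0 were called between genotypes in Treg and 1 in Teff, where 1.45% and 6.92% of all tested genes were called. The called regulator was Vcp, the unfoldase that extracts Nfe2l1 from the endoplasmic reticulum. Vcp fell in KO Teff, to 4195 and 4425 normalized reads against 4969.7 and 5186 in WT Teff (log2 fold change -0.24, adjusted p = 0.0432).

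The genes that supply ubiquitin and load the products were measured beside them. Of 19 ubiquitin, activating enzyme and shuttle genes, 0 were called between genotypes in either cell type by limma. Of all tested genes, 1.45% were called in Treg and 6.92% in Teff, so few calls would be looked for in a list this short. In Treg relative to Teff, 2 of the 19 were called lower and 0 higher in each genotype. Of all tested genes, 11.2% in KO and 11.6% in WT were called lower. Rps27a, which encodes ubiquitin fused to a ribosomal protein, was called lower in both. Its log2 fold changes were -0.84 in KO (adjusted p = 0.00129, limma) and -0.48 in WT (adjusted p = 0.0184). Of 8 genes of peptide loading and its regulation, 1 was called lower in KO Treg and 1 in KO Teff, against 0.779% and 5.08% of tested genes. In Treg it was Tap1, the peptide transporter subunit (log2 fold change -0.28, adjusted p = 0.0397). Between the cell types, 4 of the 8 were called higher in Treg in WT and 2 in KO, against 13.5% and 15.7% of tested genes.

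By position, 10 of the 46 members lie on chromosome 11, which also carries Ern1 at chr11:106394650-106487852. The share of all tested genes on chromosome 11 was not counted here. The member nearest Ern1 is Psmc5, 131.5 kb away, followed by Psmd12 at 991.6 kb. Psmc5 had 1019 and 1002 normalized reads in KO Treg, 1095 and 1126 in WT Treg, 987 and 1029 in KO Teff and 1043 and 1039 in WT Teff, and its log2 fold change was -0.14 in Treg and -0.05 in Teff, neither called. Psmd12, a lid subunit, had -0.05 and 0.05, with overlapping libraries.

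Promoter letters were searched because proteasome genes are known to share regulators. RefSeq promoters (GRCm38.p6) were at hand for 39 members, and Psmb1, Psmb2, Psmb7, Psmc3, Psmd3, Psmd7 and Psmg2 had no entry. In the 250 bases before the start, on both strands, the antioxidant response core TGACNNNGC, which Nfe2l1 and Nfe2l2 bind, was present in 5 members (12.8%), namely Psmb5, Psmb6, Psmc6, Psmd12 and Psmd9, against 13.8% of 10232 tested genes with a promoter. The letters CCAAT were present in 15 members (38.5%) against 40.5% of tested genes, and TATAAA in 3 members (7.69%) against 8.83%. The ETS core CCGGAA was present in 17 members (43.6%) against 24.4% of tested genes and 13.6% of all 27025 promoters. The motifs were searched apart from each other, and the letters of one may overlap those of another.

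The promoters of 2 cutting subunits with the TGACNNNGC letters, in capitals, are shown over 100 bases before the start. Psmb5 lies at chr14:54617996-54618095 (minus strand) and Psmb6 at chr11:70525257-70525356 (plus strand).
Psmb5: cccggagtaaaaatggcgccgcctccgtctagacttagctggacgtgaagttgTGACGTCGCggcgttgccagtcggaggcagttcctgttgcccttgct
Psmb6: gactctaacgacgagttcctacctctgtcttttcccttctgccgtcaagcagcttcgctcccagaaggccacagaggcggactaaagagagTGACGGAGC

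For the ETS core, 90 bases of Psmd2 (chr16:20651562-20651651, plus strand), a member called between the cell types in KO, and of Psmc5 (chr11:106256050-106256139, plus strand), the member nearest Ern1, are shown with CCGGAA or its reverse complement in capitals.
Psmd2: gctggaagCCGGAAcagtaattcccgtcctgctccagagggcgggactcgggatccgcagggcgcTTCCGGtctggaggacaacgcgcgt
Psmc5: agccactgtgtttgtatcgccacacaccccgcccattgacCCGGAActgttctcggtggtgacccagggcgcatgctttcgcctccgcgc

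These letters describe the sequence and say nothing of binding. Members with the TGACNNNGC letters included Psmb5 and Psmd9, whose KO over WT log2 values in Treg were -0.43 and 0.17, and Psmb6, Psmc6 and Psmd12 at -0.12, -0.11 and -0.05.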

How the data were processed

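Splenic Treg and Teff of KO and WT mice had been sequenced at day 7 of EAE, with 2 libraries in each of 4 groups, as single-end poly(A) libraries per the labels' protocols. The submitters' processing notes name Trim Galore 0.4.4, Salmon 0.14.1, DESeq2 1.28.1, R 4.0.3 and the build mm10. The deposited values are a normalized signal, read numbers that are not whole, so no count model was fitted. The authors' deposited log2 fold changes and adjusted p-values were copied, not recomputed.

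Here log2(value + 1) was fitted with limma 3.58.1 (trend and robust, R 4.3.3) over all 8 libraries, for the 13358 genes that reached 10 in 2 or more libraries. P-values were Benjamini-Hochberg adjusted over those genes and called below 0.05. The fit was tested on simulated data. Levels per kilobase used 1 principal transcript per gene (GENCODE M21), and near-identical transcripts were sought with blastn 2.17.0 (95% identity over 300 bases). Fold changes understate differences of low genes. Depth is known only as the sums of normalized values. The members and lists were chosen with earlier results of these data known. Named were the called members, the smallest p of each class and contrast, fixed roles, and the extremes per kilobase. Alternatives were the pseudocount, filters, scalings, moderation, the groups fitted, a replicate block, leaving out each library and summing near-identical copies. Libraries with the same number in different groups did not deviate together, so the main fit has no block. Some results for genes outside the proteasome lists are not reported here.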

Additional observations from a re-analysis of the deposited data

Results flagged for a closer look

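For 2 members both KO libraries lay below both WT libraries in Treg and above them in Teff. Psmb4 had 1651 and 1745 normalized reads in KO Treg, 1861 and 1833 in WT Treg, 1843 and 1895 in KO Teff and 1717 and 1659.7 in WT Teff, and its KO effect in Treg minus that in Teff was -0.27 on the log2 scale, with an unadjusted p of 0.0179 and adjusted p = 0.357 by limma. Psmg3, a chaperone of 20S assembly, had 83.3 and 84.8 normalized reads in KO Treg, 121 and 93.9 in WT Treg, 85.6 and 94.9 in KO Teff and 77.0 and 80.1 in WT Teff, and the difference was -0.53 with adjusted p = 0.581. Neither difference passed the test. Of the members, 4.35% showed such opposite order, against 735 of the tested genes (5.5%).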

How the results depend on the processing

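The number of members called for KO against WT, in Treg and in Teff, and for the difference between those effects was 0 under the main setting and under each alternative run (limma). The fit of only the groups compared gives no separate value for the difference between effects. Called members in WT Treg against Teff numbered 3, and 1 without a filter on low values, 1 with each library divided by its sum, 0 without trend and robust moderation and 0 when only the groups compared were fitted. Leaving out 1 library at a time gave 0 to 3 in WT and 0 to 4 in KO. No called member changed direction. Psmb5 in Teff, not called, changed sign when summed with Gm3375, with a log2 fold change of 0.06 against -0.22 for its own value. The members' median log2 fold change of KO over WT ran from -0.11 to -0.08 in Treg under the scalings tried, and was -0.03 in Teff with upper-quartile scaling. With the replicate block the numbers called were 2 in WT and 3 in KO and 0 in the other comparisons, and Psme1 was no longer called. Same-numbered libraries deviated together with r between -0.0384 and 0.0590, so the numbers are not taken to pair them. Psmb5 in Treg had an adjusted p between 0.0698 and 0.318 over 18 alternatives that left its value unsummed, and 0.740 when summed. Low values limit Psmb11, Psmc2, Psmc3ip and Psmg3.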
